A study of Homo sapiens with 10 samples.

Results

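The step compared here is the doubling of the olaparib dose between the libraries T40 (40 µM) and T20 (20 µM) of 1 serial escalation of the human line Kuramochi. All 2077 cells of T40 were set against all 1461 cells of T20, together 3538 of the 18209 cells of the series, chosen by library name alone. Kuramochi is an ovarian cancer line that the labels call epithelial and BRCA2-mutant. T40 cells were grown in olaparib at 40 µM and T20 cells at 20 µM, each until confluent, and per the series' design both come from the drug-naive line by escalation. Whether T40 cells were grown from T20 cells directly is not stated. RNA was counted as molecular identifiers (UMIs) by inDrop, a droplet method, with 1 library for each dose. No difference below therefore carries a replicate check or a test, and a difference between doses cannot be told apart from a difference between 2 libraries.

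Olaparib blocks PARP enzymes, which act at DNA strand breaks, and cells without BRCA2 repair the resulting lesions poorly. Tumour cells that survive such drugs often pass through changed expression states without a new mutation. Among the transcripts known to move fast under stress are the immediate early genes, whose transcription factors (EGR, FOS, JUN and NR4A families) appear within minutes of a signal, and the interferon-stimulated genes, which respond to cytokine or to nucleic acid sensed in the cell.

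T40 gave 5049036 UMIs (median 2097 per cell) and T20 4253488 (median 2742). Mitochondrially encoded transcripts took 7.99% of UMIs in T40 and 7.32% in T20. The nuclear copies of mitochondrial rRNA (MTRNR2L genes) took 1.72% in T40 and 4.94% in T20. Barcodes shared by the libraries numbered 22. Epithelial markers summed to 850 CPM (UMIs per 1e6 UMIs of the library) in T40 and 1267 in T20, carried by KRT8 and KRT18, whose 3′ ends are shared with other genes to 44.7% and 18.3%, while EPCAM, CLDN3 and MUC16 were listed at 0 in T40 and at 10.1 CPM or less in T20. Fibroblast markers summed to 1425 CPM in T40 and 981 in T20, led by ACTA2, and endothelial markers to 55.5 and 64.4. Markers of the ovarian serous lineage summed to 205 CPM in T40 and 397 in T20. Of these 7 markers, 3 were listed at 0 in T40 and none in T20. PAX8, a transcription factor among them, was at 160 CPM in T40 and 225 in T20. Of the immune markers, CD68 (3′ end shared to 81.1%) was at 4.16 CPM in T40 and at 0 in T20, and LST1 at 0 in both.

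Of the 4048 genes measured, 136 (3.36%) were higher in T40 and 150 (3.71%) lower. A gene counted as measured with at least 100 UMIs over the 10 populations and 50 CPM in T40 or T20. It counted as higher or lower when log2(CPM + 10) differed by at least 1. The median difference over all measured genes was 0.06. The step before it, T20 against T10 (10 µM), had 118 genes higher (2.8%) and 163 lower (3.86%) of 4218. The step after it, T80 (80 µM) against T40, had 12 higher (0.315%) and 73 lower (1.92%) of 3808. The root mean square of the differences was 0.59 for T40 against T20, 0.57 for the step before and 0.40 for the step after; T80 and T40 were thus the closest of these 3 pairs. Counting error made up 2.37%, 2.71% and 3.72% of those squares.

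The 14 highest differences belonged to EGR2, OSR2, NR4A1, EGR3, CRISPLD1, FOSB, ATF3, SMR3B, CD44, DUSP5, WEE1, SPOCK1, MYADM and VCAM1. EGR2, a zinc finger factor of the immediate early class (chromosome 10, 62811996 to 62919900, GRCh38), stood at 137 CPM in T40 and was listed at 0 in T20. FOSB, an AP-1 subunit (chromosome 19, 45467995 to 45475179), was at 800 CPM in T40 and 114 in T20, 7.0-fold higher (95% counting interval 6.37 to 7.71). NR4A1, an orphan nuclear receptor, was at 121 and 6.11 CPM in T40 and T20, 19.7-fold higher (13.3 to 30.5). All 3 encode transcription factors, and 2 of them were at or near 0 in T20.

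OSR2, a zinc finger factor of limb and palate development, was at 204 CPM in T40 and 14.3 in T20 (14.2-fold, 11 to 18.7). CD44, the hyaluronan receptor (chromosome 11, 35138870 to 35232402), was at 402 CPM in T40 and 66.1 in T20 (6.08-fold, 5.37 to 6.92). WEE1, the kinase that holds CDK1 inactive before mitosis, was at 202 CPM in T40 and 32.9 in T20 (6.14-fold, 5.14 to 7.38). VCAM1 (an adhesion receptor for leukocyte integrins), SPOCK1 (a matrix proteoglycan), MYADM and CRISPLD1 were also among the 14 highest, with differences of 2.27, 2.28, 2.27 and 2.74.

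The genes lowest in T40 included secreted proteins and interferon-stimulated genes. IGFBP3, which binds insulin-like growth factors outside the cell (chromosome 7, 45912245 to 45921874), was at 7.53 CPM in T40 and 248 in T20, 32.9-fold lower (23.8 to 46.8). IFI6, an interferon-induced mitochondrial and endoplasmic reticulum protein (chromosome 1, 27666061 to 27672218), was at 30.7 CPM in T40 and 572 in T20, 18.6-fold lower (15.8 to 22.1). RGS5, a regulator of G protein signalling, was at 12.1 CPM in T40 and 157 in T20 (13-fold lower, 9.99 to 17.2). All 3 were well counted in T20 and low in T40.

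CLU, the secreted chaperone clusterin, was at 147 CPM in T40 and 858 in T20 (5.83-fold lower, 5.38 to 6.31). CCND1, cyclin D1, was at 43.0 CPM in T40 and 236 in T20 (5.50-fold lower, 4.74 to 6.4). AKR1B1, an aldo-keto reductase, was at 152 and 755 CPM in T40 and T20, with 11.5% of its 3′ end shared with other genes, so its value is uncertain. SLC34A2, SLC39A8 (solute carriers), GPX3 (a secreted glutathione peroxidase), PLCG2, HS6ST1, KIRREL and LRRN2 completed this end of the ranking with ISG15. MTRNR2L genes were left out of the ranking, though some lay lower than several of these genes. MTRNR2L8, at 2790 CPM in T40 and 13587 in T20, had a difference of -2.28.

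**Figure D1:**
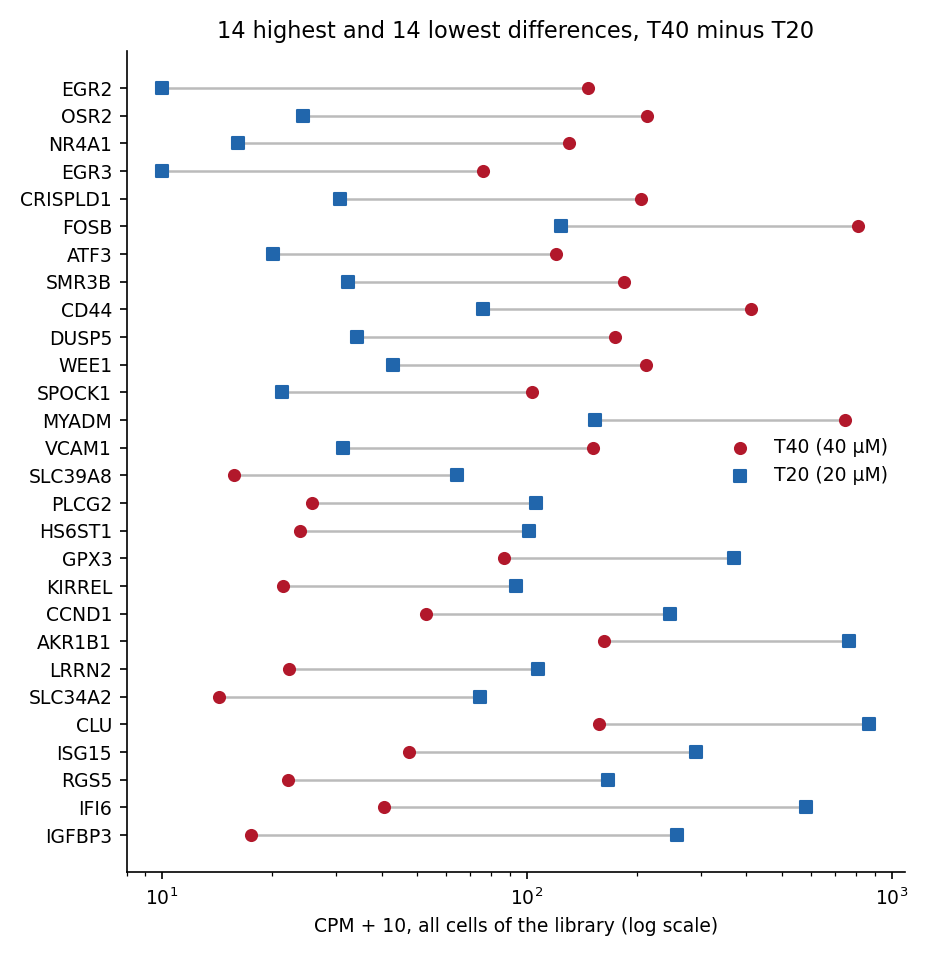
Levels of the 14 highest and 14 lowest genes by difference, in CPM + 10 on a log axis, for T40 (circles) and T20 (squares), all cells of 1 library each. MTRNR2L genes and symbols made of a clone name were left out of the ranking. EGR2 and EGR3 were listed at 0 in T20 (plotted at 10), and IGFBP3 had the lowest difference, -3.88.

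Of 21 measured immediate early genes, 13 were higher in T40 and 0 lower, with a median difference of 1.41 beside 0.06 over all measured genes. Of all measured genes, 3.36% were higher and 3.71% lower. EGR1 was at 2057 CPM in T40 and 676 in T20 (3.04-fold, 2.92 to 3.17), and FOS at 803 and 287 (2.80-fold, 2.63 to 2.99). The phosphatase DUSP1, which switches off MAP kinases, was at 440 CPM in T40 and 104 in T20, and ZFP36, which destabilises AU-rich mRNAs, at 409 and 117. Both were higher in T40. ATF3, a stress-induced CREB-family factor, was at 110 CPM in T40 and 10.1 in T20, and EGR3 at 65.8 and listed at 0. JUN (293 CPM in T40, 170 in T20), JUNB (429 and 221) and IER2 (318 and 163) did not reach a difference of 1, and MYC ran the other way with 55.3 CPM in T40 and 85.8 in T20. Outside the list, DUSP5, SGK1 and PPP1R15A, which MAP kinase, glucocorticoid and stress signals are known to induce, had differences of 2.35, 2.09 and 2.25.

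The promoters of EGR1 and EGR2 are shown because serum response factor is known to drive both through CArG boxes. Each sequence is the 250 bases before the transcript start in RefSeq (GRCh38.p14), written 5′ to 3′ on the gene's strand, with CArG boxes in capitals. EGR1 lies on the plus strand at chr5:138465229-138465478 and EGR2 on the minus strand at chr10:62816367-62816616.
EGR1: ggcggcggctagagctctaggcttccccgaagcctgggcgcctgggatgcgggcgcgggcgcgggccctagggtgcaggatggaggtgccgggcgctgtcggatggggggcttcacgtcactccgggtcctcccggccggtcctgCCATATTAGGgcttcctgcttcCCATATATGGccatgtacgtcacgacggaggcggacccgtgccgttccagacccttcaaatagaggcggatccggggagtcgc
EGR2: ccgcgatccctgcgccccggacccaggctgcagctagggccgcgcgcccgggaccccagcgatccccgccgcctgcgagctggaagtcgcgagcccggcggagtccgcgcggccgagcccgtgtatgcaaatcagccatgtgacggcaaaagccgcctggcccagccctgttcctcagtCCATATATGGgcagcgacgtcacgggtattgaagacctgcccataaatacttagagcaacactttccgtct
Of the 13 higher members, 9 have a promoter in the table (250 bases before to 50 after the start), and 2 of these, EGR1 and EGR2, hold a CArG box on either strand. A box is also held by 1 of the 6 matched members that were measured and did not reach a difference of 1 (16.7%, beside 22.2% of the 9), so it does not separate them. The share is 2.25% over the matched promoters of measured genes and 1.29% over all 35116 of the table. The cAMP response element TGACGTCA occurs in 1 of the 9, DUSP1 (1.85% of all promoters), and the AP-1 site TGANTCA in 0 (7.71%). A match is a run of letters and not a binding event.

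Among the 10 populations these transcripts peaked in T40. At doses of 0, 1, 2.5, 5, 10, 20, 40, 80, 160 and 320 µM the 13 higher members summed to 781, 2139, 1216, 1709.5, 1994, 2117, 6984.5, 1638, 1688 and 2130.1 CPM. These 13 were picked for being higher at this step. All 28 members of the list, the 13 included, summed to 1599.7, 3670.4, 2227.9, 2917.4, 3031.9, 3227.9, 8961.3, 2466.3, 2545.7 and 3097.9 CPM at the same doses. The whole list thus also had its highest sum at 40 µM. EGR2 was listed at 0 in every other population, and FOSB stood at 246 CPM in T80. For 12 of the 13, T10 and T80 both lay nearer to T20 than to T40. CYR61, a matricellular gene of the list, was at 319 CPM in T10, 533 in T20, 1205 in T40 and 151 in T80. Immediate early genes are also known to respond to the handling of cells, and with 1 library at 40 µM the dose and the handling of that library cannot be told apart. In the authors' table of states the T40 cells carry the suffix "2nd" after the dose, which no other population has and whose meaning is not stated. Whether T40 is a repeat culture or a repeat library is therefore unknown, and this bears on every difference given here.

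Summed levels do not separate more cells with a transcript from more transcripts per cell, so each cell was thinned to 697 UMIs, the smallest cell of the pair, and cells with a UMI were counted. After thinning, 96.4% of T40 cells (95.5% to 97.2%, exact binomial) and 67.8% of T20 cells (65.3% to 70.2%) had a UMI of the 13 genes. At least 3 such UMIs were found in 74.0% of T40 cells and 17.9% of T20 cells. The 13 genes were picked for higher sums in T40, so the direction of these differences follows from that choice. Several UMIs of the set were found in most T40 cells and in a minority of T20 cells. FOSB was detected in 38.0% of thinned T40 cells and 6.37% of thinned T20 cells (66.3% and 22.45% without thinning). EGR1 was detected in 67.9% and 30.9% (90.3% and 61.1% without thinning). EGR2 was detected in 7.80% of thinned T40 cells and was listed at 0 in T20. The series holds no cell type that should lack these genes, so free RNA has no measured level here.

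Of 20 measured interferon-stimulated genes, 0 were higher in T40 and 11 lower, with a median difference of -1.25. The shares over all measured genes were 3.36% higher and 3.71% lower. ISG15, a ubiquitin-like modifier, was at 37.6 CPM in T40 and 281 in T20 (7.46-fold lower, 6.4 to 8.74). BST2, the membrane tether tetherin, was at 131 CPM in T40 and 408 in T20, and IFI44L at 30.9 and 157. IFIT1, which binds foreign RNA caps, was at 14.7 CPM in T40 and 90.0 in T20, with 10.2% of its 3′ end shared with other genes. The lower members thus covered secreted, membrane and cytosolic products. The transmembrane factors IFITM3 (1701 CPM in T40, 1703 in T20) and IFITM2 (1067 and 617) were not lower, but their 3′ ends are shared to 51.7% and 30.2%, so both values are uncertain. Class I antigen presentation genes, which interferon also induces, had 0 higher and 1 lower (CALR, a chaperone) of 10, with a median of 0.02.

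The promoters of 4 lower members are shown because the interferon-stimulated response element, whose core is written here as GAAANNGAAA, is the site through which the ISGF3 complex is known to act. The layout is as for EGR1, with every match of the core on either strand in capitals. They are IFI6 (minus strand, chr1:27672193-27672442), ISG15 (plus strand, chr1:1013247-1013496), IFIT3 (plus strand, chr10:89327747-89327996) and BST2 (minus strand, chr19:17405631-17405880).
IFI6: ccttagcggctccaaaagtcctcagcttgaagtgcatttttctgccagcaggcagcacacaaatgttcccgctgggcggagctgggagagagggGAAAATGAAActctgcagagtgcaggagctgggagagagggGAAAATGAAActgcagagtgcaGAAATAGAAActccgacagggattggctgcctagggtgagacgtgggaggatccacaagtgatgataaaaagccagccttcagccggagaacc
ISG15: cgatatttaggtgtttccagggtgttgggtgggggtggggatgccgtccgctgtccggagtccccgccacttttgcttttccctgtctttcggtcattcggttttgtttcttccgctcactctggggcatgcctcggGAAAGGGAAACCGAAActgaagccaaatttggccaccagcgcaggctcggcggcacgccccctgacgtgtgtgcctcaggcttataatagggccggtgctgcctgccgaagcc
IFIT3: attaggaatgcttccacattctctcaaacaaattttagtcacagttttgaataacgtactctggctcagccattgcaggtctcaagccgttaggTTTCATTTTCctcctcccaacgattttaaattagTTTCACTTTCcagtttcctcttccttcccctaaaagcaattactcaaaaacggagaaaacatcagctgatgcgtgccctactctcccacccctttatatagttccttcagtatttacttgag
BST2: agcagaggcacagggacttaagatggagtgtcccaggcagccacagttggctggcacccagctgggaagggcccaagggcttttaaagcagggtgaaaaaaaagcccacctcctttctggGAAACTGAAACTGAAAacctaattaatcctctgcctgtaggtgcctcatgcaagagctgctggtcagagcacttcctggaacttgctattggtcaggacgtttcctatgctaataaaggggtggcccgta
In ISG15 and BST2 a pair of matches overlap. All 10 of the 11 lower members that have a promoter in the table hold the core, as do 5 of the 7 measured members with a promoter that did not reach a difference of 1, so the core does not separate them. The share is 3.57% over all promoters of the table and 4.22% over the matched promoters of measured genes. It is 14.3% over the matched promoters of all lower genes, which include these 10 members.

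In the same order of doses, from 0 to 320 µM, the 11 lower members summed to 804, 3837, 3628.5, 1058, 1076, 2016.5, 378, 299.55, 276 and 171 CPM. These 11 were picked for being lower at this step. The 42 members of the whole list that are in the matrix summed to 3802.7, 9930.7, 8973, 4834.9, 4126.6, 6020.7, 4197.6, 3946.9, 2334.7 and 1819.8 CPM at the same doses, with IFITM2 and IFITM3 among the most abundant. Both sums at 20 µM stood above their neighbours, but the whole list at 40 and 80 µM lay above its untreated sum, while the 11 lay below theirs. IFI6 was at 115 CPM in T10, 572 in T20, 30.7 in T40 and 29.2 in T80. For 6 of the 11 genes T10 lay nearer to T20 and T80 nearer to T40, and for the other 5 both T10 and T80 lay nearer to T40. After thinning, 22.7% of T40 cells (20.9% to 24.6%) and 67.5% of T20 cells (65.0% to 69.9%) had a UMI of the 11 genes. At least 3 such UMIs were held by 0.626% of T40 cells and 16.5% of T20 cells, and the richest cell held 5 in T40 and 22 in T20.

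**Figure D2:**
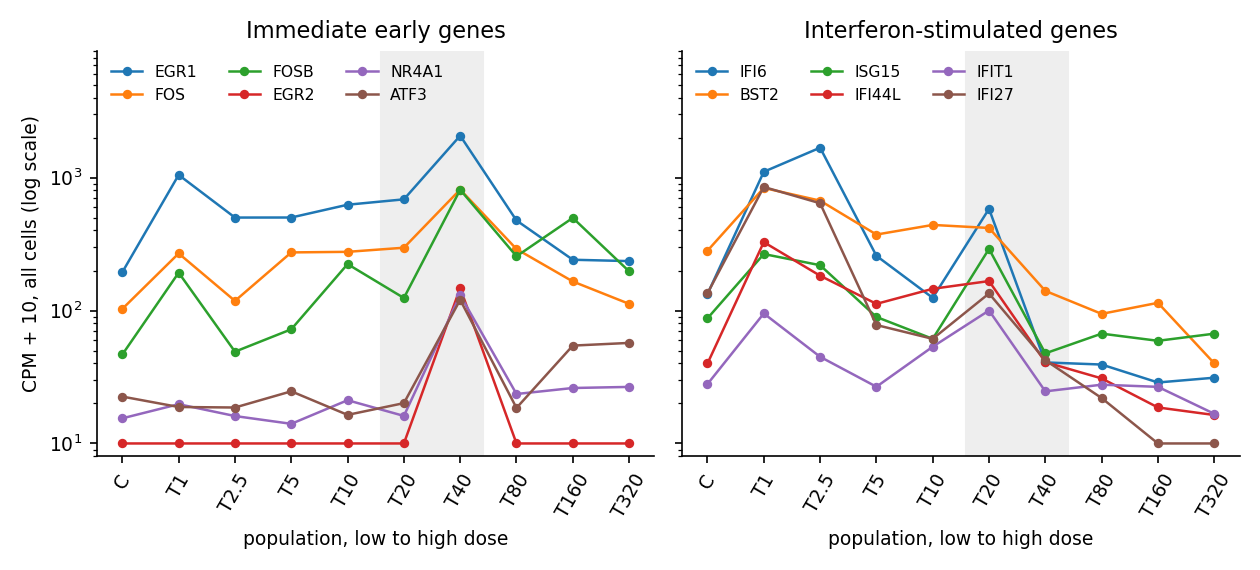
Levels of 6 immediate early genes (left) and 6 interferon-stimulated genes (right) in CPM + 10 on a log axis, in each of the 10 populations from untreated (C) to 320 µM (T320), with T20 and T40 shaded. EGR2 leaves the level of a listed 0 in T40 alone, and IFI6 drops to 30.7 CPM in T40, against 572 in T20.

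The authors' table assigns a state to 918 of the T40 cells and 640 of the T20 cells (listed cells). State S4 held 697 of the listed T40 cells (75.9%, 73.0% to 78.7%) and 74 of the listed T20 cells (11.6%, 9.19% to 14.3%). State S2 held 0 listed T40 cells, which allows a share of up to 0.401%, and 417 listed T20 cells (65.2%, 61.3% to 68.8%). State S3 held 24.1% of the listed T40 cells and 23.3% of the listed T20 cells. The listed population thus passed from mostly S2 to mostly S4 at this step while S3 kept its share. States were assigned by the authors from these same cells, so genes that tell S2 from S4 are no independent finding. Listed cells were poor in cell cycle transcripts: the G2/M list summed to 786 CPM in listed and 5687 in unlisted T40 cells, and to 646 and 4186 in T20.

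**Figure D3:**
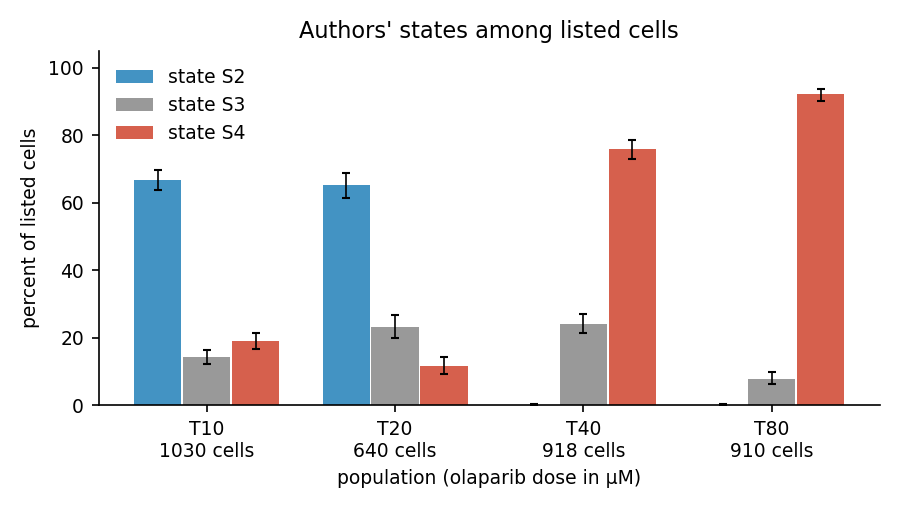
Percent of listed cells in states S2, S3 and S4 in T10, T20, T40 and T80, with exact binomial 95% intervals that cover counting error only. S2 holds 0 in T40 and 65.2% in T20, and S4 holds 75.9% in T40 and 11.6% in T20.

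To ask how much of the step follows from this shift, the T20 profiles of the states were weighted by the T40 shares, and the resulting profile was compared with T20. Over the 4009 genes measured in listed cells, this reweighted profile gave 19.7% of the squared differences between T40 and T20. The counting error of what reweighting leaves over, which includes that of the small S4 and S3 profiles of T20, came to 13.8% of the squares, and 66.4% was given by neither. The value rests on which library gives the profiles. With the T40 profiles weighted back to T20 shares it was 89.5%, but T40 has no S2 cells, so 66.1% of that mixture is the S2 profile of T20 itself. With state profiles from T10, a library outside the step, it was 8.06%. The S4 profile of T20 comes from 74 cells.

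Of the listed cells' genes, 179 (4.46%) were higher and 174 (4.34%) lower. For 60 of the 179 and 68 of the 174, reweighting gave at least 0.5 of the measured difference. In a split of the CPM difference that averages over both libraries, state shares gave at least 0.5 for 89 and 109. T40 has no listed S2 cells, so this split used the S2 profile of T20 for both libraries. No difference within S2 could enter it, and the loss of S2 counts wholly as a change of shares. RGS4, an inhibitor of G protein signalling, was at 384 CPM in listed T40 cells and 62.1 in listed T20 cells, a difference of 2.45, beside 2.33 from reweighting. In S4 cells alone it was at 478 CPM in T40 and 448 in T20. TGFBI, an adhesive matrix protein, was at 279 CPM in S4 cells of both libraries, and at 12.95 in S2 cells of T20. NT5E, the ecto-enzyme CD73, was at 225 CPM in S4 cells of T40 and 214 in S4 cells of T20. The T40 over T20 fold in S4 cells was 1.07 (0.875 to 1.31) for RGS4 and 1.05 (0.79 to 1.43) for NT5E, so neither differed there beyond counting error.

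Several lowered genes were too sparse in S4 cells for such a comparison. CCND1 was at 26.7 CPM in S4 cells of T40 and 32.3 in S4 cells of T20, beside 335 in S2 cells of T20. LRRN2, a leucine-rich adhesion protein, was at 7.34 and 12.1 CPM in S4 cells of T40 and T20, beside 174 in S2 cells of T20. EMX2, a factor of the reproductive tract, was at 6.81 and 4.04 CPM, beside 87.2. In S4 cells of T20, CCND1 rests on 8 UMIs, LRRN2 on 3 and EMX2 on 1, and all 3 genes are under the 50 CPM minimum there, so whether S4 cells differed between the doses was not detectable. The T40 over T20 fold of CCND1 in S4 cells was 0.827, with an interval of 0.39 to 2.02. For IGFBP3, reweighting gave -3.04 beside a difference of -4.28 in listed cells, T10 profiles gave -1.59, and the S2 cells of T20 held 452 CPM. For CDKN2A, which inhibits CDK4 and CDK6, these were -1.63, -2.04 and -1.06.

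Immediate early genes behaved otherwise. Reweighting gave a median difference of 0.00 over the 21 measured members, and S4 cells alone a median of 1.21. EGR2 and EGR3 were listed at 0 in every state of T20, so reweighting gives them 0 whatever the shares. FOSB was at 1142 CPM in S4 cells of T40 and 105.01 in S4 cells of T20 (10.9-fold, 7.4 to 16.7), at 461 and 124 in S3 cells, and at 621 and 89.6 in unlisted cells. The 13 higher members summed to 9482 CPM in S4, 4377 in S3 and 5699.5 in unlisted cells of T40, and to 3029 in S4, 1816 in S3, 2615.5 in S2 and 1721.5 in unlisted cells of T20. S4, S3 and unlisted cells were thus each higher in T40, for genes picked as higher over all cells of T40. S2 had no listed T40 cells to compare. S4 had the top level in both libraries. OSR2 was at 299 CPM in S4 cells of T40 and 24.2 in S4 cells of T20. For OSR2, reweighting gave a log2 difference of 0.12, beside 3.22 measured in listed cells.

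Interferon genes stood between. Reweighting gave a median of -0.68, S4 cells alone -0.49, S3 cells -0.73 and unlisted cells -1.34. The 11 lower members, picked as lower over all cells of T40, summed to 364 CPM in S4, 660 in S3 and 328 in unlisted cells of T40. In T20 they summed to 1317 CPM in S4, 1557.5 in S3, 2688 in S2 and 1731 in unlisted cells. IFI6 was at 34.1 CPM in S4 cells of T40 and 440 in S4 cells of T20, so it differed within S4. IFIT3 was at 23.1 CPM in S4 cells of T40 and 12.1 (3 UMIs) in S4 cells of T20, beside 125 in S2 cells of T20. Its S4 values are under the 50 CPM minimum, so whether IFIT3 differed within S4 was not detectable. IFI27 was at 22.5 CPM in S4 and 57.9 in S3 cells of T40, and at 254 in S4, 302 in S3 and 41.6 in S2 cells of T20. RGS5 was at 12.6 CPM in S4 cells of T40 and 307 in S4 cells of T20, but at 12.7 and 11.8 in S3 cells. COL1A1, a fibrillar collagen chain, was at 16.2 CPM in S4 cells of T40 and 198 in S4 cells of T20. Reweighting gave 0.37 for RGS5 and 1.06 for COL1A1, opposite in sign to their differences in listed cells.

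**Figure D4:**
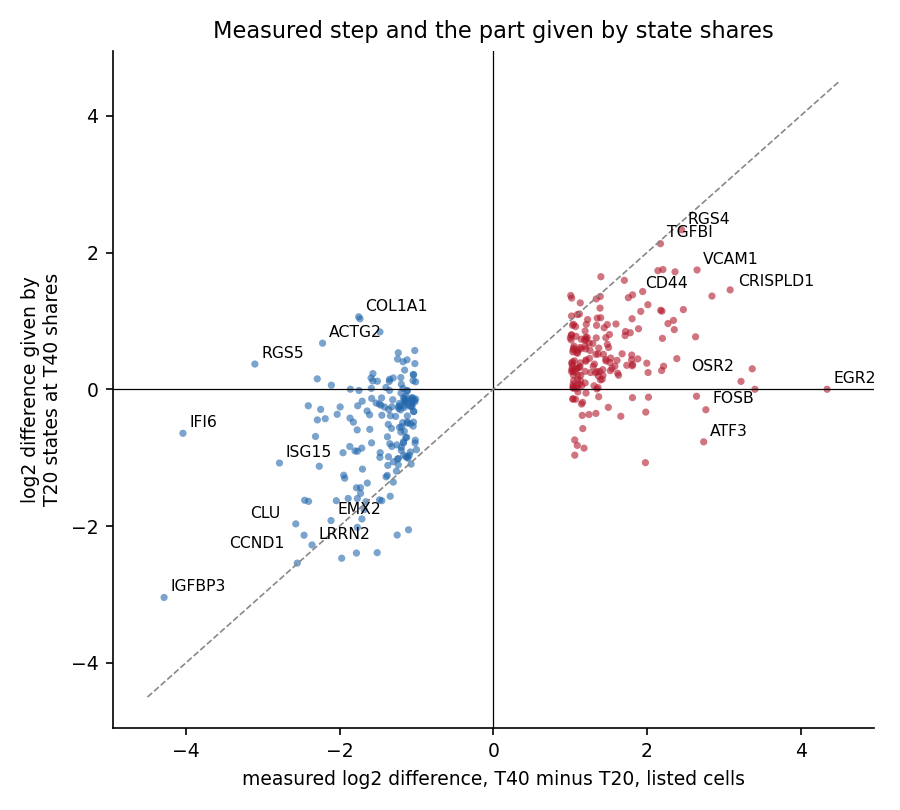
For the 353 genes that differed by at least 1 in listed cells, the measured log2 difference (horizontal) and the difference given by T20 state profiles at T40 shares (vertical), with the line of equality dashed. RGS4 and TGFBI lie near the line, EGR2 and FOSB at or below 0, and COL1A1 and RGS5 on the opposite side.

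Within S4 cells, 214 genes (5.32%) were higher and 153 (3.81%) lower of 4019. Within S3 cells, 199 (4.9%) were higher and 183 (4.51%) lower of 4061. Counting error made up 21.6% and 19.5% of the squared differences there, against 4.05% in all listed cells, because S4 of T20 holds 247601 UMIs and S3 506588. Among unlisted cells, which had the higher cell cycle sums, 119 genes (2.89%) were higher and 146 (3.54%) lower of 4124. CD44 was at 454 CPM in unlisted T40 cells and 94.98 in unlisted T20 cells. IGFBP3 was at 8.50 CPM in unlisted T40 cells and 178 in unlisted T20 cells. The unlisted cells have no state in the table, so a share of states cannot be set beside their values.

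Levels at the neighbouring doses sorted the step further. Of the 136 higher genes, 51 (37.5%) had T10 nearer to T20 and T80 nearer to T40, 28 (20.6%) had both neighbours nearer to T20, and 39 (28.7%) had both nearer to T40. Over all measured genes these shares were 33.3%, 12.2% and 33.6%. CD44 was at 29.2 CPM in T10, 66.1 in T20, 402 in T40 and 218 in T80. SPOCK1 was at 12.3, 11.3, 93.1 and 98.9 CPM in the same order, and SGCD, a sarcoglycan, at 10.9, 13.6, 77.0 and 73.2. OSR2 (24.2, 14.3, 204 and 17.8 CPM) and WEE1 (65.2, 32.9, 202 and 49.7 CPM) were instead high in T40 alone. Of the 150 lower genes, 74 (49.3%) had T10 nearer to T20 and T80 nearer to T40, and 71 (47.3%) had both neighbours nearer to T40. CDKN2A was at 527, 435, 100 and 89.2 CPM in T10, T20, T40 and T80. TMSB10, an actin-sequestering peptide, was at 610, 2212, 678 and 479 CPM, and for such genes T20 is the library that stands apart.

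The median difference of T80 minus T10, libraries that the step does not use, was 0.20 for the higher genes, -0.78 for the lower genes and -0.17 over all measured genes. For the 39 higher genes of which reweighting gave at least 0.5 it was 0.82, and for the other 97 it was 0.11. For the lower genes it was -1.44 for 62 and -0.41 for 88. T10 lay nearer to T20 and T80 nearer to T40 for 59.0% of those 39 and 28.9% of those 97, and for 72.6% of the 62 and 33.0% of the 88. T10 and T80 differ in states as well. S2 and S4 held 66.8% and 19.0% of listed T10 cells, and 0% and 92.1% of listed T80 cells. Values for genes sorted by reweighting are therefore no independent check on the states.

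The counts for the lists here and below stand beside 3.36% higher and 3.71% lower over all measured genes. A count of 1 thus says little about a list. TGF-beta targets were higher in 5 and lower in 0 of 10 measured members (median 0.96). CTGF, a matricellular protein, was at 3755 CPM in T40 and 1678 in T20. ACTA2, smooth muscle actin, was at 1050 CPM in T40 and 475 in T20, but at 1508 and 1555 in S4 cells. The median within S4 was 0.23, and reweighting gave 0.80. Fibroblast markers as a list, ACTA2 included, had 1 higher and 1 lower of 4 measured, and their part in this was not tested. Fibrillar collagens and matrix genes had 1 higher (COL6A1) and 2 lower (COL1A1 and BGN) of 10, and mesenchymal genes 1 higher (CD44) and 1 lower (S100A4) of 13.

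IGF binding proteins and related genes had 0 higher and 3 lower of 10. IGFBP2 was at 161 CPM in T40 and 624 in T20 (3.87-fold lower, 3.57 to 4.19), while IGFBP7 was at 1667 and 1950. The senescence list split, with 2 higher (CDKN1A among them) and 4 lower (HMGA2, CDKN2A, CCND1 and IGFBP3) of 8. CDKN1A, the CDK inhibitor p21, was at 195 CPM in T40 and 51.7 in T20 (3.77-fold, 3.25 to 4.38), and in unlisted cells at 255.8 and 66.4. It was the 1 higher member of the 6 measured p53 response genes. S100 and annexin genes had 0 higher and 4 lower of 15, led by S100A4 with 622 CPM in T40 and 2145 in T20.

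G2/M genes had 2 higher (AURKB and HMGB2) and 0 lower of 21 with a median of 0.46. Their list summed to 3298 CPM in T40 and 2337 in T20. In listed cells AURKB and HMGB2 differed by 0.70 and 0.78. AURKB was under the 50 CPM minimum there, at 26.8 CPM in T40 and 12.6 in T20. G1/S genes had 0 called of 17 (median 0.27), and DNA break repair genes 0 of 10 (median 0.02). Of the PARP and NAD enzymes, NMNAT2, which makes NAD in the cytosol, was the 1 lower of 4, at 32.5 CPM in T40 and 108 in T20. No drug efflux gene reached 50 CPM, and their sum was 109 CPM in T40 and 121 in T20. Epithelial genes had 0 higher and 2 lower of 9 (CLDN16 and KRT8, the second with 44.7% of its 3′ end shared), and the Mullerian and serous lineage 0 and 2 of 6 (EMX2 and SPON1). Ribosomal protein genes had 1 higher (RPS13) and 4 lower of 80, among them RPS2, whose 3′ end is shared to 87.0%. These counts are near the 3.36% higher and 3.71% lower over all measured genes. Of the remaining lists, NF-kB targets had 2 higher (VCAM1 and TNFAIP2) and 1 lower (TNFRSF12A) of 7, and hypoxia targets 2 higher (CA12 and VEGFA) of 8. Heat shock genes had 0 called of 14 and BCL2 family genes 0 of 4. Metallothioneins had 2 lower of 4 and glycolysis 1 lower of 15 (ALDOA, shared to 92.1%). Both beta protocadherins measured, PCDHB10 and PCDHB16, were higher (63.4 and 65.0 CPM in T40, 10.6 and 14.8 in T20).

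**Figure D5:**
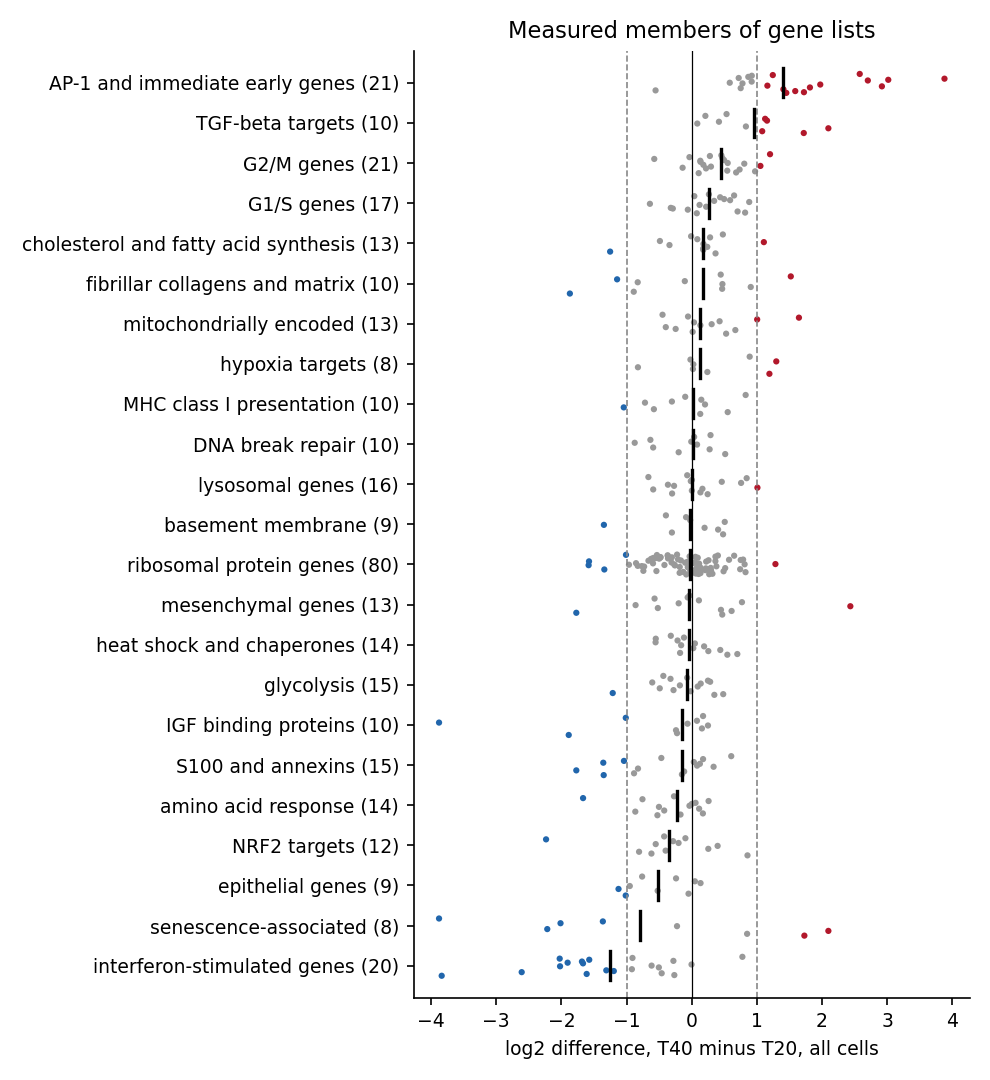
Log2 difference of T40 minus T20 for each measured member of the lists with at least 8 measured members (number in brackets), with the list median as a bar and dashed lines at -1 and 1. The medians run from -1.25 (interferon-stimulated genes) to 1.41 (AP-1 and immediate early genes).

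By chromosome, the median difference was -0.20 over 272 genes of chromosome 2 and -0.19 over 416 genes of chromosome 1. The highest medians were 0.31 over 27 genes of chromosome 18, 0.31 over 237 of chromosome 5, 0.28 over 145 of chromosome 14 and 0.26 over 36 of chromosome 21. For chromosomes 2, 1 and 14, reweighted states gave -0.28, -0.21 and 0.29, state profiles from T10 gave -0.21, -0.17 and 0.25, and S4 cells alone 0.11, 0.04 and -0.11. For chromosome 5 these were 0.20, 0.08 and 0.07. For chromosomes 18 and 21 reweighted states gave 0.11 and 0.05, T10 profiles 0.06 and -0.03, and S4 cells alone 0.34 and 0.20. Chromosomes thus differed in whether the reweighted or the S4 median was nearer to the measured one. Copy number was not measured in these libraries.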

How the data were processed

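Single-cell RNA of 10 Kuramochi populations was made by inDrop, per the labels. The submitters' processing notes name hg38, GRCh38 and Seurat 2.3.2; how reads were aligned and counted and how cells were chosen were not given in the sources used here. Deposited by the authors were raw UMI counts of 12373 genes in 18209 cells, and a table of 8240 cells with states and counts of UMIs and genes, in which the authors give the mitochondrial share as a fraction. Listed T40 cells were matched by barcode, with identical UMI totals for all 918.

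Counts were summed per library, state or unlisted cells and scaled by the total to CPM, keeping all cells without a doublet caller. Differences are of log2(CPM + 10). Each library lists a gene at 0 or in about 1% of cells or more (at least 20 cells in T40 and 14 in T20), so a listed 0 is not a measured absence and has no fold. Fold intervals (exact Poisson) and share intervals (exact binomial), at 95%, cover counting error only. Thinning drew UMIs without replacement. Sequence sharing is the share of 31-mers in the last 500 bases of GENCODE 29 transcripts found in other genes (12201 genes).

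Named were the 14 highest and 14 lowest genes, the 4 most changed members of each list past 1, and the 6 largest remainders after reweighting in each direction; the text gives part of them, and EGR1, FOS, DUSP1, ZFP36, CYR61, HMGA2, BST2, IFIT3, RGS4, NT5E, SGCD, SGK1, PPP1R15A and TMSB10 were chosen after their values were seen, as were members named for not changing. MTRNR2L genes and symbols made of a clone name were left out of the rankings. Members and lists were chosen with earlier results of these data known. Alternatives were other scalings (edgeR 4.0.16 TMM, DESeq2 1.42.0 size factors), pseudocounts, minima, cell weights and cell sets. The steps were tested on simulated data. Results for some genes are not reported here.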

Additional observations from a re-analysis of the deposited data

How the results depend on the processing

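The counts of 136 higher and 150 lower genes stayed within 1.5 times under TMM, DESeq2 size factors, a pseudocount of 1 CPM, the mean of per-cell CPM, listed cells alone, and with sharing genes or mitochondrial transcripts left out (the last chosen after seeing the data). A pseudocount of 25 CPM gave 90 higher genes, a minimum of 200 CPM gave 42 higher and 50 lower because fewer genes were tested, and no minimum gave 232 and 267 because more were. In S4 cells a pseudocount of 25 CPM gave 125 and 88 and the 200 CPM minimum 54 and 40, and in unlisted cells 70 and 89, and 39 and 47. The share of the squared step given by states, 19.7%, was 89.5% with T40 profiles at T20 shares, 15.5% with shares by cells, 28.8% with the 200 CPM minimum, 23.5% with S2 and S4 alone and 8.06% with T10 profiles (added after seeing the data); beyond what these alternatives change by construction, the cause was not tested. The T80 minus T10 medians were 0.39 and -0.58 under TMM, which moved the median of all measured genes from -0.17 to 0.02, and 0.22 for higher genes with a pseudocount of 1 CPM. Shares of S2 and S4 stayed inside their intervals when weighted by UMIs or limited to cells of 1500 UMIs or more. Of 75 named genes, 0 reversed, and 16 fell short of a difference of 1 under at least 1 alternative, among them NPC2, KRT8, CLDN16, HMGB2 and IGFBP5. No paired analysis was possible because each dose has 1 library. That number, and the 74 S4 cells of T20, limit the precision.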
